A study of Caenorhabditis elegans with 18 samples.

Results

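The 10 genes described here, of 20395 gene identifiers counted, are csr-1, hrde-1, prg-1, wago-1, wago-4, alg-3, alg-4, ergo-1, rde-1 and nrde-3, all Argonaute genes of Caenorhabditis elegans. They were found by matching these symbols to WormBase identifiers through a reference table of gene names, without use of any expression value, and all 10 passed the filter on low counts. Argonaute proteins hold a small RNA and use its sequence to find matching transcripts. In C. elegans, primary small RNAs, made by Dicer or as piRNAs, are bound by primary Argonautes. RNA-dependent RNA polymerases then copy the recognised transcripts into secondary small RNAs, which are loaded onto worm-specific Argonautes that silence or protect genes in the germline and the soma. ALG-3 and ALG-4 act in the germline during spermatogenesis, which in hermaphrodites precedes oocyte production, so they are set beside the other 8 genes.

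The transcripts were measured by RNA sequencing of whole worms of strain CB3474, genotype ben-1(e1880)III. BEN-1 is a beta-tubulin and the main target of benzimidazole anthelmintics in C. elegans, and all groups, DMSO included, carry its mutant allele. For 4 h the drug groups received a benzimidazole at 1.13 mM in DMSO, namely albendazole (ABZ), the sulfide fenbendazole (FBZ), its sulfoxide oxfendazole (OxBZ), mebendazole (MBZ), or thiabendazole (TBZ), and the control group received DMSO without drug. Each group has 3 libraries, numbered 1 to 3, or 2 to 4 for TBZ. Worms were grown from first-stage larvae at 20 °C for about 70 h until adult according to the protocol, whereas the source label names mixed larval stages. Transcripts of 16 oocyte and eggshell markers summed to between 9551 and 14990 CPM in all 18 libraries. CPM are the usual depth-scaled counts, with the library total multiplied by its TMM factor. Separate cultures per drug are not stated in the labels, and p-values therefore describe the spread between libraries, which may be technical in part.

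Library totals were 57010263 to 67277284 counted reads. The libraries ABZ 2 and DMSO 2 stood apart from the rest by their sperm transcripts: the mean log2(CPM + 0.5) of 27 sperm markers was 3.84 in both, against 0.387 to 2.28 in the other 16 libraries. Many results are therefore also given without DMSO 2. Libraries of FBZ and of OxBZ differed less among themselves than those of DMSO. The chi-square per gene between libraries was 7.14 to 17.46 in FBZ, 5.17 to 45.24 in OxBZ and 150.46 to 215.74 in DMSO. The fit takes a gene's spread as equal in all 6 groups.

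**Figure D1:**
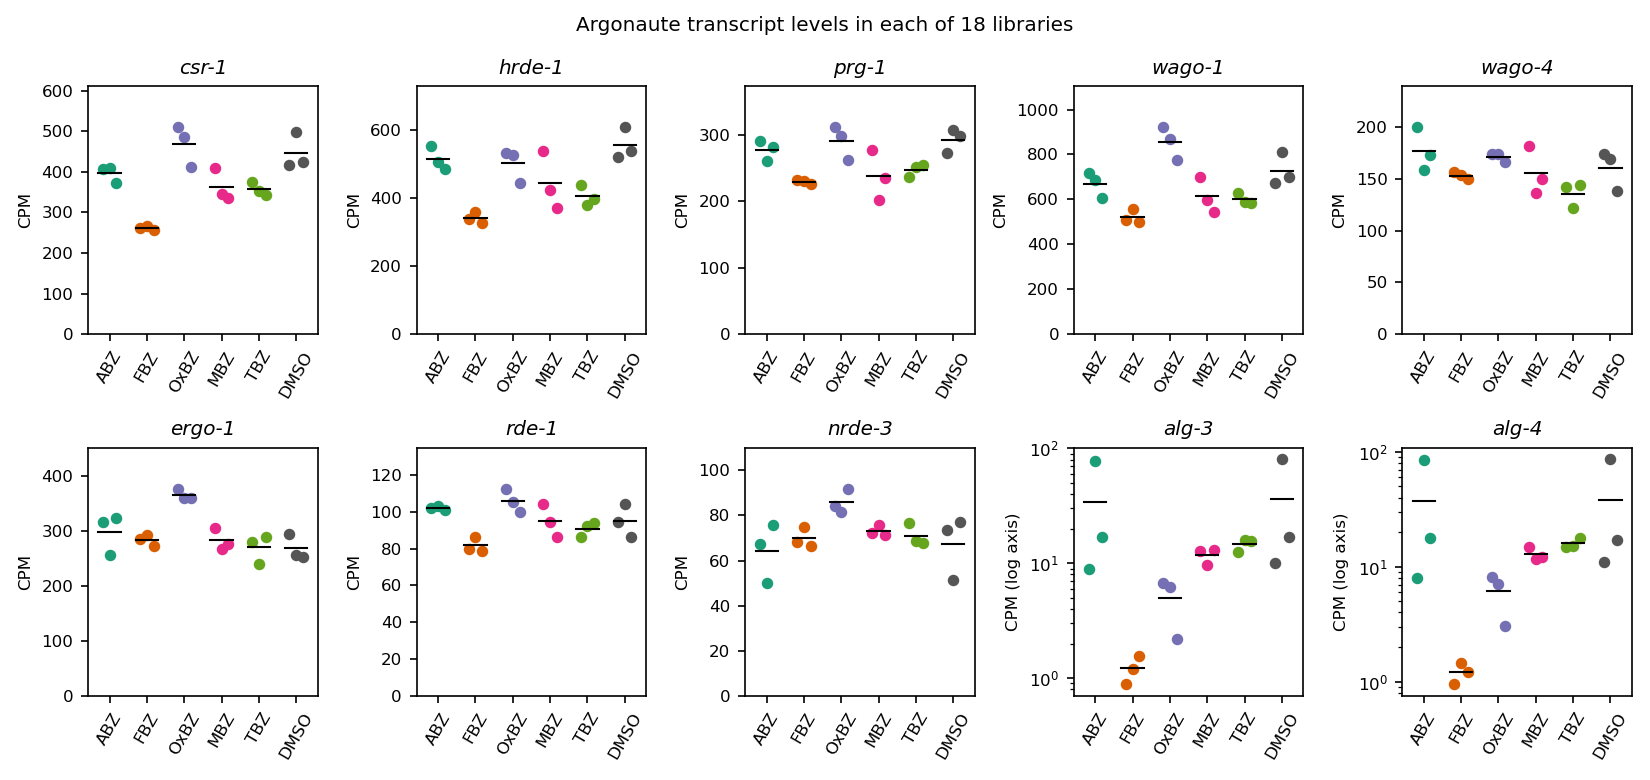
Level of each Argonaute gene in each library, in CPM scaled by TMM factors (linear axes from 0, log axes for alg-3 and alg-4); points are libraries in the order of their numbers and lines are group means of 3 libraries. The 3 FBZ points of alg-3 lie between 0.881 and 1.57 CPM, below all DMSO points, while for nrde-3 the FBZ and DMSO points overlap.

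The spermatogenic Argonautes were lower in FBZ than in DMSO by a wide margin and lower in OxBZ by a smaller one. ALG-3 and ALG-4 bind 26G small RNAs that target transcripts of the male germline, and worms lacking both make defective sperm at raised temperature. The alg-3 transcript (WBGene00011910) was at 0.881, 1.21 and 1.57 CPM in the FBZ libraries, against 10.1, 81.23 and 16.86 CPM in the DMSO libraries. The alg-4 transcript (WBGene00006449) was at 0.944, 1.45 and 1.21 CPM in FBZ, against 10.96, 87.15 and 17.22 CPM in DMSO. For both genes every FBZ library lay below every DMSO library, and the DMSO groups themselves were spread out because library 2 was far above libraries 1 and 3. For alg-3 the lowest DMSO library held 6.43 times the highest FBZ library, and for alg-4 7.58 times. The FBZ values rest on 56, 87 and 96 reads for alg-3 and on 60, 104 and 74 reads for alg-4. The log2 fold change of alg-3 was -4.88 ± 0.90 (SE, n = 3 libraries per group; edgeR's quasi-likelihood test, Benjamini-Hochberg adjusted p = 0.000802). That of alg-4 was -5.0 ± 0.92 (SE; edgeR, adjusted p = 0.000784). Without DMSO 2 the log2 fold changes were -3.45 for alg-3 and -3.54 for alg-4 (edgeR, adjusted p = 0.00296 and 0.00289).

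OxBZ libraries held an intermediate amount. The alg-3 level was 6.69, 6.18 and 2.18 CPM in OxBZ, against the DMSO values of 10.1, 81.23 and 16.86 CPM. The alg-4 level was 8.19, 7.05 and 3.07 CPM in OxBZ, against 10.96, 87.15 and 17.22 CPM in DMSO. OxBZ and DMSO libraries did not overlap for either gene. The log2 fold change was -2.85 ± 0.81 for alg-3 (SE; edgeR, adjusted p = 0.0136) and -2.66 ± 0.82 for alg-4 (SE; edgeR, adjusted p = 0.0193). Both calls were lost without DMSO 2, with log2 fold changes of -1.51 and -1.29 (edgeR, adjusted p = 0.122 and 0.19). They were lost without OxBZ 3 too, at -2.49 for alg-3 and -2.33 for alg-4 (edgeR, adjusted p = 0.0506 and 0.0679), and that of alg-4 without OxBZ 2, at -2.77 (edgeR, adjusted p = 0.0518). With DMSO 2 and ABZ 2 both left out they passed, at the same log2 fold changes of -1.51 and -1.29 (edgeR, adjusted p = 0.0128 and 0.0193). In a fit of OxBZ and DMSO alone with the library number as a block, the adjusted p was 0.1 for alg-3 and 0.118 for alg-4.

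The other 3 drugs gave no call for the pair. In ABZ, alg-3 was at 8.89, 77.04 and 17 CPM, and alg-4 at 7.97, 85.43 and 17.92 CPM. Library 2 was the high one in ABZ as it was in DMSO. The log2 fold changes against DMSO had 95% intervals from -1.71 to 1.57 for alg-3 and from -1.71 to 1.61 for alg-4. These intervals take no account of the library numbers that ABZ shared with DMSO. Between libraries of the same number, ABZ minus DMSO on the log2 scale was -0.17, -0.08 and 0.01 for alg-3. For alg-4 it was -0.44, -0.03 and 0.06. In MBZ, alg-3 was at 12.89, 9.63 and 13.06 CPM and alg-4 at 14.88, 11.61 and 12.27 CPM. In TBZ, alg-3 was at 12.53, 15.9 and 15.6 CPM and alg-4 at 14.89, 15.27 and 17.88 CPM. ABZ 1 lay below the lowest DMSO library for both genes, and MBZ 2 did for alg-3, while the other libraries of these drugs lay within the range of DMSO. The intervals of MBZ minus DMSO ran from -3.29 to 0.08 for alg-3 and from -3.28 to 0.13 for alg-4, and those of TBZ minus DMSO from -2.97 to 0.38 and from -2.95 to 0.43, so a difference of several fold was not detectable with these DMSO libraries.

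The pair moved with each other and with sperm transcripts. The reads of alg-3 made up 41.5% to 56.5% of the reads of both genes, with a median of 47.6% over 18 libraries. The genes are close paralogs, and how reads that match both were counted is not given in the sources used here, so the split between them is uncertain. All 27 sperm markers measured were lower in FBZ than in DMSO, with a median log2 fold change of -4.0, and 20 of 27 were lower in OxBZ, with a median of -2.34. Without DMSO 2 the counts were 22 of 27 in FBZ and 1 of 27 in OxBZ, with medians of -3.04 and -1.12, and without both DMSO 2 and ABZ 2 they were 25 and 15. The OxBZ count was 6 without OxBZ 1, 5 without OxBZ 2 and 3 without OxBZ 3. Over all genes tested, with all libraries, 27.4% were lower in FBZ and 21.5% in OxBZ. In MBZ, TBZ and ABZ edgeR called none of the 27 and neither did DESeq2. At an unadjusted p under 0.05 there were 2 in MBZ and none in TBZ and ABZ. The medians in MBZ, TBZ and ABZ were -1.37, -1.01 and -0.041. Without DMSO 2 these medians were -0.168, 0.153 and 1.25. Without both DMSO 2 and ABZ 2 they were -0.168, 0.152 and -0.178. The 3 largest falls in FBZ were those of spe-11 at -5.33, of gsp-3, a sperm protein phosphatase gene, at -5.30, and of htas-1, a sperm histone gene, at -5.17. Among the falls in OxBZ were those of spe-29 at -2.96 and snf-10 at -2.70, where spe-29 was under 1 CPM in both groups. Summed sperm marker levels were 86.92 to 92.87 CPM in FBZ, 126.7 to 176.2 CPM in OxBZ and 179.9 to 696.7 CPM in DMSO. Most of the FBZ sum came from cpb-1, fog-1 and spe-44, at means of 47.2, 13.8 and 13.3 CPM, and spe-27 and spe-29 had no read in 1 FBZ library each. In whole worms, fewer cells of a type and less RNA per cell cannot be told apart.

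With the sperm marker level of each library as a covariate, the log2 fold change of FBZ minus DMSO was -1.06 for alg-3 and -1.08 for alg-4 (edgeR, adjusted p = 0.0094 and 0.00495). For OxBZ minus DMSO it was -0.51 and -0.25, neither of them called (edgeR, adjusted p = 0.0602 and 0.301). The covariate itself differs between the groups. The mean log2(CPM + 0.5) of alg-3 and alg-4 minus that of the sperm markers was 0.111 to 0.407 in FBZ, 0.625 to 1.4 in OxBZ and 1.64 to 2.56 in DMSO.

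**Figure D2:**
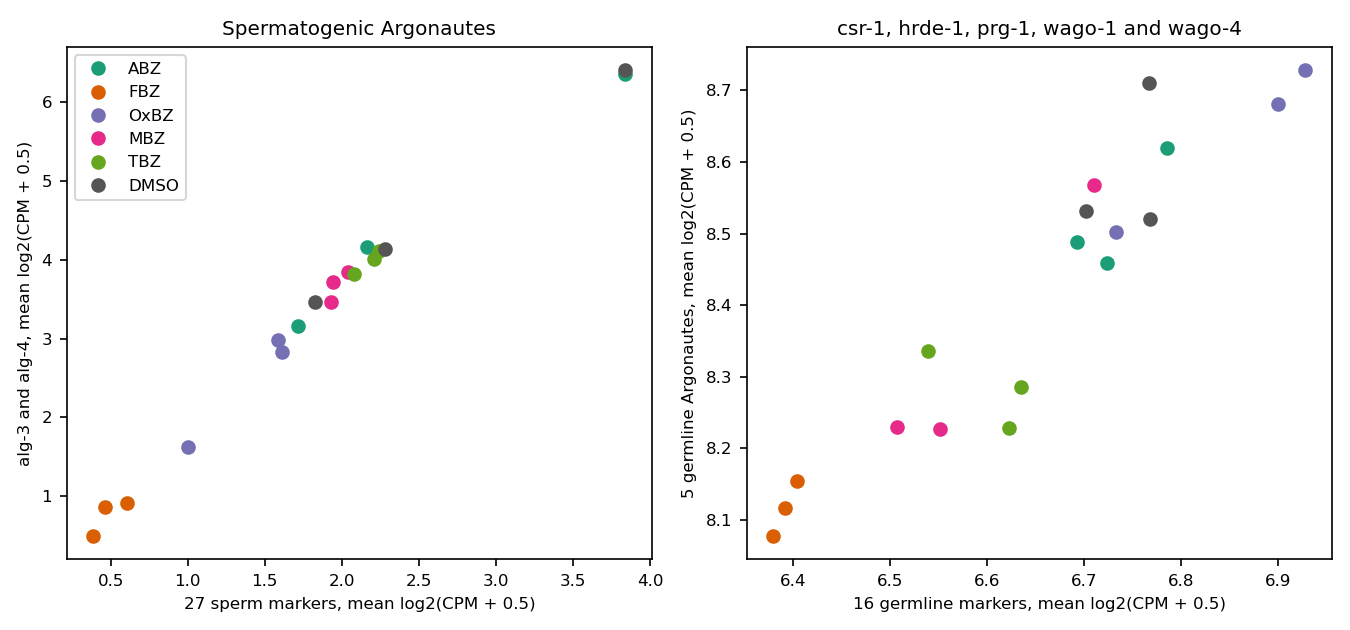
Left, mean log2(CPM + 0.5) of alg-3 and alg-4 against that of 27 sperm markers; right, mean log2(CPM + 0.5) of csr-1, hrde-1, prg-1, wago-1 and wago-4 against that of 16 germline markers; each point is 1 of 18 libraries. On the left ABZ 2 and DMSO 2 stand alone at 3.84 on the horizontal axis and FBZ lies lowest; on the right the vertical range is narrow and FBZ again lies lowest on both axes.

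Among the germline Argonautes, csr-1, hrde-1, prg-1 and wago-1 were lower in FBZ than in DMSO by 0.35 to 0.77 on the log2 scale, and wago-4 was not called. CSR-1 binds small RNAs against germline-expressed genes and is essential for chromosome segregation and fertility. The csr-1 transcript (WBGene00017641) was at 261.4, 265.6 and 257.9 CPM in FBZ, against 417.3, 497.4 and 424.7 CPM in DMSO. The FBZ libraries were close together and lay far below DMSO. Its log2 fold change was -0.77 ± 0.09 (SE, n = 3 per group; edgeR, adjusted p = 4.02e-05) and was -0.67 without DMSO 2. HRDE-1 is the nuclear Argonaute that carries heritable silencing. The hrde-1 transcript (WBGene00007624) was at 339.2, 358.9 and 326.8 CPM in FBZ, against 521.4, 609.1 and 540.9 CPM in DMSO. Here too the groups were apart, with a log2 fold change of -0.71 ± 0.12 (SE; edgeR, adjusted p = 0.000437).

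WAGO-1 binds secondary small RNAs that silence transposons and other genes in germ granules. The wago-1 transcript (WBGene00011061) was at 507.4, 555.3 and 498.9 CPM in FBZ, against 671.0, 811.7 and 699.8 CPM in DMSO. No libraries overlapped, and the log2 fold change was -0.48 ± 0.10 (SE; edgeR, adjusted p = 0.00158). PRG-1 is the PIWI protein that binds piRNAs. The prg-1 transcript (WBGene00004178) was at 232.3, 229.7 and 226.5 CPM in FBZ, against 271.8, 307.8 and 298.6 CPM in DMSO. These groups were also apart, with a log2 fold change of -0.35 ± 0.10 (SE; edgeR, adjusted p = 0.00719). The prg-1 call was lost without library scaling (log2 fold change -0.17; edgeR, adjusted p = 0.0883), and both the wago-1 and prg-1 calls were lost with the sperm covariate (edgeR, adjusted p = 0.129 and 0.136). WAGO-4 passes on inherited RNA interference through the cytoplasm of germ cells. The wago-4 transcript (WBGene00010263) was at 156.4, 153.5 and 149.8 CPM in FBZ, against 173.6, 168.7 and 138.4 CPM in DMSO. The groups overlapped and the 95% interval of the log2 fold change ran from -0.31 to 0.18.

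In the other drugs the mean levels of csr-1, hrde-1, prg-1 and wago-1 were nearer to DMSO than in FBZ. For prg-1 in MBZ the gap to FBZ was small, with means of 238.1 CPM in MBZ and 229.5 CPM in FBZ. The wago-4 log2 fold change was larger in size in TBZ, ABZ and OxBZ (-0.239, 0.145 and 0.097) than in FBZ (-0.065), none of them called. In OxBZ, csr-1 was at 509.6, 485.7 and 412.2 CPM, hrde-1 at 534.7, 528.7 and 446.6 CPM and prg-1 at 311.0, 297.7 and 262.1 CPM, all overlapping with DMSO. In OxBZ, wago-1 was at 920.5, 867.7 and 777.1 CPM and wago-4 at 174.2, 174.0 and 165.9 CPM. OxBZ 3 was the lowest OxBZ library for all 5 of these genes. The wago-1 log2 fold change of 0.23 ± 0.10 did not pass (SE; edgeR, adjusted p = 0.0741), and was 0.30 without OxBZ 3 (edgeR, adjusted p = 0.0467). In TBZ, hrde-1 was at 440.1, 380.6 and 399.5 CPM, against 521.4, 609.1 and 540.9 CPM in DMSO. All TBZ libraries were below all DMSO libraries, and the log2 fold change was -0.45 ± 0.12 (SE; edgeR, adjusted p = 0.0332). This call was lost in 9 of 30 alternative settings, in which and in the others the log2 fold change lay between -0.54 and -0.28. Among the 9 were those without DMSO 2 at -0.39, without DMSO 3 at -0.47, without TBZ 3 at -0.41 and without TBZ 4 at -0.44 (edgeR, adjusted p = 0.113, 0.0621, 0.148 and 0.129). The csr-1 transcript was at 374.6, 352.1 and 343.8 CPM in TBZ, with a log2 fold change of -0.32 ± 0.09 against DMSO that missed the threshold (SE; edgeR, adjusted p = 0.0514). It passed in 7 of 30 settings, such as without TBZ 2 at -0.37, without DMSO 1 at -0.41 and without MBZ 1 at -0.34 (edgeR, adjusted p = 0.0385, 0.0261 and 0.0249).

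MBZ libraries were more spread out. In MBZ, hrde-1 was at 540.0, 424.5 and 371.6 CPM and csr-1 at 409.4, 345.8 and 336.6 CPM. Library 1 was the highest of the MBZ libraries for both genes, and without it csr-1, hrde-1, prg-1 and wago-1 passed as lower in MBZ than in DMSO, at log2 fold changes of -0.45, -0.54, -0.48 and -0.41 (edgeR, adjusted p = 0.0178, 0.0106, 0.00644 and 0.0395). Without DMSO 1, csr-1 and prg-1 passed, at -0.42 and -0.43 (edgeR, adjusted p = 0.0253 and 0.0212), and without TBZ 2 prg-1 passed, at -0.36 (edgeR, adjusted p = 0.0477). With all libraries the adjusted p of the 4 genes was 0.14, 0.202, 0.15 and 0.253 (edgeR). In ABZ, csr-1 was at 406.1, 410.2 and 372.4 CPM and hrde-1 at 554.6, 506.1 and 486.8 CPM. Neither gene was called in ABZ. ABZ libraries shared deviations with the DMSO libraries of the same number, and within these pairs csr-1 was lower in ABZ in 3 of 3, by log2 differences of -0.04, -0.28 and -0.19, as was nrde-3, by -0.13, -0.04 and -0.03. Of the other 8 genes, 5 were lower in ABZ in 2 of 3 pairs and 3 were higher in 2 of 3.

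The germline markers were also lower in FBZ. In OxBZ and TBZ the edgeR calls of the markers and of the germline Argonautes differed. All 16 markers were lower in FBZ than in DMSO, with a median log2 fold change of -0.33. In OxBZ 5 markers were higher and none lower, while none of the 5 germline Argonautes was called there. In TBZ edgeR called no marker, while hrde-1 was called lower, where 3.17% of all genes were called lower. DESeq2 called 3 markers lower in TBZ. The marker median was -0.174 in TBZ and 0.156 in OxBZ. The 5 germline Argonautes lay between -0.454 and -0.239 in TBZ and between -0.146 and 0.233 in OxBZ. Without DMSO 2, 13 markers were lower in FBZ and 2 higher in OxBZ, and without FBZ 1, 10 were lower in FBZ. The OxBZ count was also 2 without ABZ 1, DMSO 1 or OxBZ 1, and 3 without MBZ 1, OxBZ 2 or TBZ 2. The largest falls in FBZ were those of gld-1 at -0.52, glp-1 at -0.51 and fbf-2 at -0.45, all regulators of germ cell fate. In OxBZ the largest rises were those of rad-51 at 0.33, lst-1 at 0.29 and nos-3 at 0.27, and the nos-3 call was lost without DMSO 2, at 0.24 (edgeR, adjusted p = 0.0561). The mean log2(CPM + 0.5) of the 5 germline Argonautes minus that of the germline markers stayed between 1.61 and 1.94 in all 18 libraries. Of the 16 oocyte and eggshell markers, 11 were lower in FBZ, and 6 were higher and 2 lower in OxBZ. Without DMSO 2 these counts were 8, 5 and 2, and the 6 higher in OxBZ became 2 without DMSO 1 or without OxBZ 1. The counts of both lists stand beside 27.4% lower among all genes in FBZ, and 21.2% higher and 21.5% lower in OxBZ. The 2 oocyte and eggshell markers lower in OxBZ were a smaller share than among all genes. The part of both lists in the Argonaute results was not tested.

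Of the Argonautes known from the soma, from exogenous RNA interference or from the 26G pathway of oocytes and embryos, ergo-1 was higher in OxBZ, rde-1 was slightly lower in FBZ and nrde-3 was called in no drug against DMSO. ERGO-1 binds 26G small RNAs of maternal and embryonic origin. The ergo-1 transcript (WBGene00019971) was at 377.2, 361.2 and 360.6 CPM in OxBZ, against 295.4, 256.9 and 253.2 CPM in DMSO. Every OxBZ library was above every DMSO library, and the log2 fold change was 0.45 ± 0.09 (SE, n = 3 per group; edgeR, adjusted p = 0.00203). The call held in 30 of 30 alternative settings, with values from 0.315 to 0.46. In FBZ, ergo-1 was at 285.0, 293.0 and 273.8 CPM, overlapping with DMSO. Without library scaling it was called higher in FBZ (log2 fold change 0.26; edgeR, adjusted p = 0.0268).

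RDE-1 receives the small RNAs cut from foreign double-stranded RNA. The rde-1 transcript (WBGene00004323) was at 79.78, 86.44 and 78.82 CPM in FBZ, against 94.17, 104.2 and 86.0 CPM in DMSO. The highest FBZ library exceeded the lowest DMSO library, and the log2 fold change was -0.22 ± 0.08 (SE; edgeR, adjusted p = 0.0315). This call was lost in 8 of 29 settings, and the log2 fold change was -0.12 without DMSO 2, -0.20 without FBZ 1 and -0.19 without FBZ 3 (edgeR, adjusted p = 0.215, 0.0904 and 0.101). NRDE-3 carries secondary small RNAs into the nuclei of somatic cells. The nrde-3 transcript (WBGene00019862) was at 84.35, 81.68 and 91.79 CPM in OxBZ, against 73.71, 51.45 and 77.28 CPM in DMSO. The groups did not overlap, but the log2 fold change of 0.35 ± 0.15 did not pass (SE; edgeR, adjusted p = 0.0667). Without DMSO 3 it was 0.46 and without ABZ 2 it was 0.35, and both passed (edgeR, adjusted p = 0.0347 and 0.0281). DMSO 2 and ABZ 2, the libraries richest in sperm transcripts, were the lowest of all 18 for nrde-3, at 51.45 and 50.03 CPM. In FBZ, nrde-3 was at 68.38, 75.04 and 66.52 CPM, with a 95% interval of the log2 fold change against DMSO from -0.27 to 0.37.

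Somatic markers gave a mixed picture beside these genes. Of 13 tested, 5 were higher and 3 lower in FBZ, and 2 were higher and 6 lower in OxBZ. Over all genes tested, 24.3% were higher and 27.4% lower in FBZ, and 21.2% were higher and 21.5% lower in OxBZ. In FBZ the glutamate transporter gene eat-4 was higher by 1.90, the synaptic gene rab-3 by 1.86 and the muscle myosin gene myo-3 by 1.15 on the log2 scale. The 3 lower in FBZ were the gut genes asp-1 at -0.91, ges-1 at -0.51 and elt-2 at -0.44. In OxBZ the gut protease gene asp-1 was lower, at a log2 fold change of -1.52, as were the pharyngeal myosin gene myo-2 at -1.31 and eat-4 at -1.06. The 2 higher in OxBZ were snb-1, a synaptic vesicle gene, at 0.65 and ges-1, whose call was lost without DMSO 2, at 0.39 (edgeR, adjusted p = 0.062).

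**Figure D3:**
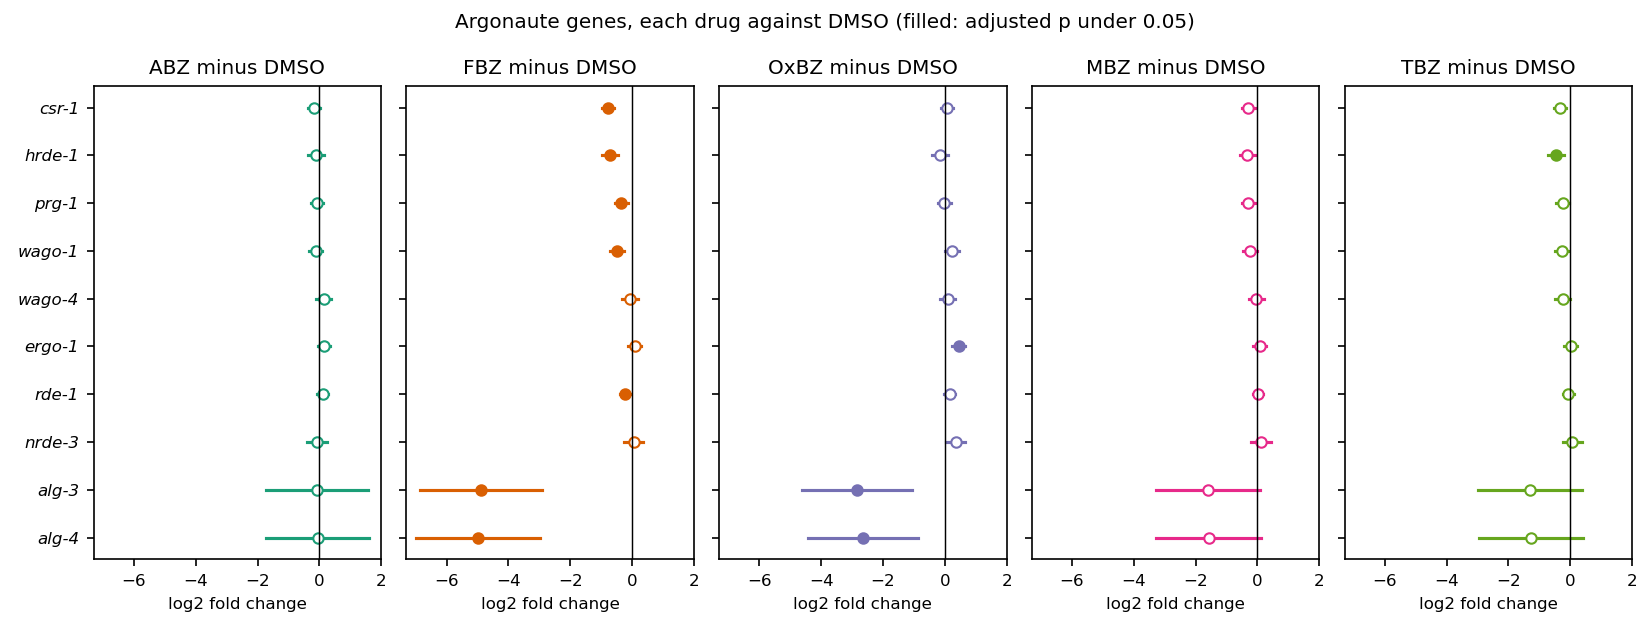
Log2 fold change of each drug against DMSO for the 10 Argonaute genes, with 95% intervals from the edgeR fit; filled points passed an adjusted p of 0.05. In FBZ 7 genes lie left of 0 with filled points, in OxBZ alg-3 and alg-4 lie left and ergo-1 right, in TBZ hrde-1 is filled, and the intervals of alg-3 and alg-4 are several log2 units wide in every panel.

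Counted by drug, FBZ gave the most calls. In FBZ 7 of the 10 Argonaute genes were lower than in DMSO and none was higher, where 27.4% of all 17484 genes tested were called lower. In 6 of the 10, all FBZ libraries lay below all DMSO libraries, which held for 32.6% of all genes. Without DMSO 2, 6 of the 10 were lower in FBZ, rde-1 no longer among them. The median log2 fold change of the 10 was -0.42, against -0.007 for all genes tested. In OxBZ 1 was higher and 2 were lower, where 21.2% of all genes were called higher and 21.5% lower. In 2 of the 10, ergo-1 and nrde-3, all OxBZ libraries lay above all DMSO libraries, which held for 26.4% of all genes, and in 2, alg-3 and alg-4, all lay below, which held for 23.9%. The median of the 10 was 0.08, and that of all genes -0.012. In TBZ 1 was lower, where 3.17% of all genes were called lower, and 4 had all TBZ libraries below all DMSO libraries, which held for 10.7% of all genes. The TBZ median was -0.26, and that of all genes 0.011.

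In MBZ edgeR called none of the 10, where it called 1.48% of all genes. At an unadjusted p under 0.05 there were 4, csr-1, hrde-1, prg-1 and wago-1, and DESeq2 called 1, prg-1. The median of the 10 in MBZ was -0.27, and that of all genes 0.009. In ABZ edgeR called none, where 2.2% of all genes were called, with none at an unadjusted p under 0.05 and none called by DESeq2. The median was -0.07, and that of all genes 0.01. The 95% intervals of the 8 genes other than alg-3 and alg-4 lay between -0.39 and 0.39 in ABZ. A test for any difference among the 6 groups called 8 of the 10, where 69.5% of all genes were called. The genes not called in it were wago-4 and nrde-3 (edgeR, adjusted p = 0.073 and 0.17). All 5 comparisons share the DMSO libraries.

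The 5 drugs were also compared with each other at the same dose and time, in 10 pairs. P-values were adjusted over genes within a pair and not over the pairs. Fenbendazole and its sulfoxide oxfendazole gave the most calls among these genes. FBZ was lower than OxBZ for 8 of the 10 genes, where 30.5% of all genes were called lower. All FBZ libraries were below all OxBZ libraries for all 10 genes, which held for 38.8% of all genes. The log2 fold change was -0.84 ± 0.09 for csr-1 (SE; edgeR, adjusted p = 4.43e-06) and -0.72 ± 0.10 for wago-1 (SE; edgeR, adjusted p = 3.54e-05). It was -0.56 for hrde-1, -0.37 for rde-1, -0.37 for ergo-1 and -0.34 for prg-1. For alg-3 it was -2.04 (edgeR, adjusted p = 0.0433) and for alg-4 -2.34 (edgeR, adjusted p = 0.0257), and these calls were lost in 13 and 5 of 28 settings, with values from -2.40 to -0.55 and from -2.67 to -0.83 over the settings. Leaving out FBZ 1, FBZ 2, FBZ 3, OxBZ 1 or OxBZ 2 ended both, with alg-3 at -2.26 to -1.69 and alg-4 at -2.5 to -1.99. The calls of csr-1, wago-1, hrde-1 and rde-1 held in all 28, that of ergo-1 was lost without scaling and that of prg-1 without scaling and without OxBZ 1, at -0.22 (edgeR, adjusted p = 0.0948).

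FBZ was lower than MBZ for csr-1, hrde-1, alg-3, alg-4 and rde-1, 5 of 10, where 15% of all genes were called lower. Its csr-1 log2 fold change was -0.48 ± 0.09 (SE; edgeR, adjusted p = 0.00302) and that of alg-3 was -3.28 ± 0.84 (SE; edgeR, adjusted p = 0.013). The csr-1 call held in 28 of 28 settings, whereas that of hrde-1 was lost in 9 and that of rde-1 in 23. Without FBZ 1 those of alg-3 and alg-4 were lost, at -3.09 and -3.28 (edgeR, adjusted p = 0.0563 and 0.0515). FBZ was lower than TBZ for csr-1, alg-3 and alg-4, 3 of 10, where 19.6% of all genes were called lower. There the csr-1 log2 fold change was -0.45 ± 0.09 (SE; edgeR, adjusted p = 0.00277) and that of alg-3 was -3.59 ± 0.86 (SE; edgeR, adjusted p = 0.0062). These calls held in 28 of 28 settings for alg-3 and alg-4 and in 27 for csr-1. Thiabendazole lacks the carbamate group of the other 4 drugs. ABZ was higher than FBZ for 7 of 10, where 24% of all genes were called higher. Among them were csr-1 at 0.60, hrde-1 at 0.59 and alg-3 at 4.81, and the prg-1 call at 0.27 was lost in 8 of 28 settings, that of wago-1 in 2 and those of hrde-1 and rde-1 in 1 each.

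OxBZ was higher than MBZ for csr-1, prg-1, wago-1 and ergo-1, 4 of 10, where 22.3% of all genes were called higher. The wago-1 log2 fold change was 0.48 ± 0.10 (SE; edgeR, adjusted p = 0.00175), in a comparison whose median over all genes was -0.14. The calls of csr-1 and wago-1 held in 29 of 29 settings, that of ergo-1 in 28 and that of prg-1 in 22. OxBZ was higher than TBZ for csr-1, hrde-1, wago-1, wago-4, ergo-1 and rde-1, 6 of 10, where 22.9% of all genes were called higher. The wago-4 log2 fold change of 0.34 ± 0.11 was the sole call of that gene in the 15 comparisons (SE; edgeR, adjusted p = 0.0266), with a median over all genes of -0.103. Over 29 settings the calls of this pair held in 29 for wago-1, 28 for csr-1 and ergo-1, 20 for wago-4, 16 for rde-1 and 8 for hrde-1. ABZ was higher than OxBZ for alg-3 and alg-4, where 22% of all genes were called higher, and lower for csr-1, wago-1, ergo-1 and nrde-3, where 21.4% were called lower. The nrde-3 value there was -0.42 (edgeR, adjusted p = 0.0336). Without ABZ 2 it was -0.27 and not called, and the calls of alg-3 (1.37), alg-4 (1.09), ergo-1 (-0.20) and csr-1 (-0.27) were lost too. Over 29 settings the calls held in 27 for wago-1, 26 for alg-3, 24 for alg-4, 22 for ergo-1, 17 for nrde-3 and 9 for csr-1. The wago-1 call was lost without ABZ 3 and without OxBZ 1, at -0.29 and -0.25 (edgeR, adjusted p = 0.0538 and 0.114).

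The pairs formed by ABZ, MBZ and TBZ gave no call among the 10 genes. ABZ and MBZ differed in 0.206% of all genes, with 1 Argonaute gene at an unadjusted p under 0.05 and none called by DESeq2. For the 8 genes other than alg-3 and alg-4 the 95% intervals of ABZ minus MBZ lay between -0.50 and 0.47. ABZ and TBZ differed in 6.33% of all genes, with 3 Argonaute genes at an unadjusted p under 0.05 and 1 called by DESeq2, and intervals of the 8 genes between -0.46 and 0.63. MBZ and TBZ differed in 3.45% of all genes, with none of the 10 at an unadjusted p under 0.05 and none called by DESeq2, and intervals of the 8 genes between -0.28 and 0.45. These intervals do not show that the drugs act alike, and for alg-3 and alg-4 they reached 3.23 in ABZ minus MBZ.

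Per kilobase of merged exons, the Argonaute genes differed widely in DMSO. The order of mean levels was wago-1 at 238 CPM per kb, hrde-1 at 158, csr-1 at 122, prg-1 at 110, ergo-1 at 73.5, wago-4 at 47.6, rde-1 at 29.5, nrde-3 at 19.6, alg-4 at 11.1 and alg-3 at 11 CPM per kb. The neighbours csr-1 and prg-1 did not differ beyond their spread, nor did alg-4 and alg-3, whose spread in DMSO also reached the level of nrde-3. The 10 genes together took 0.202% to 0.272% of all counted reads, lowest in FBZ 3 and highest in OxBZ 1. Within them alg-3 and alg-4 took 0.0945% in FBZ 1 and 6.26% in ABZ 2.

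Over all 18 libraries the highest level was 92.2 times the lowest for alg-3 and 92.3 times for alg-4, and 1.43 to 1.98 times for the other 8. The mean log2(CPM + 0.5) of alg-3 and alg-4 minus that of the other 8 was -6.90 ± 0.23 in FBZ, -5.63 ± 0.67 in OxBZ, -4.15 ± 0.14 in MBZ, -3.79 ± 0.17 in TBZ, -3.38 ± 1.72 in ABZ and -3.29 ± 1.51 in DMSO (SD, n = 3 each). The FBZ libraries were the 3 lowest of the 18. Only differences between groups are meaningful here, since the genes differ in length.

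Across the 18 libraries, log2(CPM + 0.5) of alg-3 and alg-4 had a Pearson r of 0.995 with each other. With the other 8 genes their r lay between -0.592 and 0.635, and csr-1, hrde-1, prg-1 and wago-1 had r of 0.801 to 0.935 among themselves. These values describe libraries that fall into groups and share scaling. Among 13926 genes with a mean of at least 1 CPM, the 3 most like alg-3 were Y57G11A.2, C27D8.1 and acs-18, with r of 0.997, 0.996 and 0.996. Those most like alg-4 were M70.3, acs-18 and Y37E11B.10, with r of 0.998, 0.997 and 0.997. Without ABZ 2 and DMSO 2 these 6 values were 0.992 to 0.997. For csr-1 they were ints-11, lotr-1 and plk-3 (r of 0.984, 0.982 and 0.975). For hrde-1 they were ani-2, vha-7 and pid-5 (0.991, 0.985 and 0.977), and for wago-1 they were uba-1, F44E7.4 and the eggshell gene cpg-2 (0.985, 0.983 and 0.98). The genes nearest to prg-1 were ipla-3, klp-19 and rpoa-2 (0.942, 0.941 and 0.939), and those nearest to wago-4 were denn-4, ama-1 and sec-16A.1 (0.951, 0.939 and 0.938). The pattern of rde-1 was nearest to rad-50, let-716 and the Dicer gene dcr-1 (0.97, 0.963 and 0.956), and that of ergo-1 to prp-6, nurf-1 and phac-1 (0.932, 0.931 and 0.914). For nrde-3 the nearest were sex-1, jmjd-3.2 and atz-1, with r of 0.95, 0.942 and 0.937 over 18 libraries and 0.839, 0.803 and 0.796 over the 16 without ABZ 2 and DMSO 2.

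**Figure D4:**
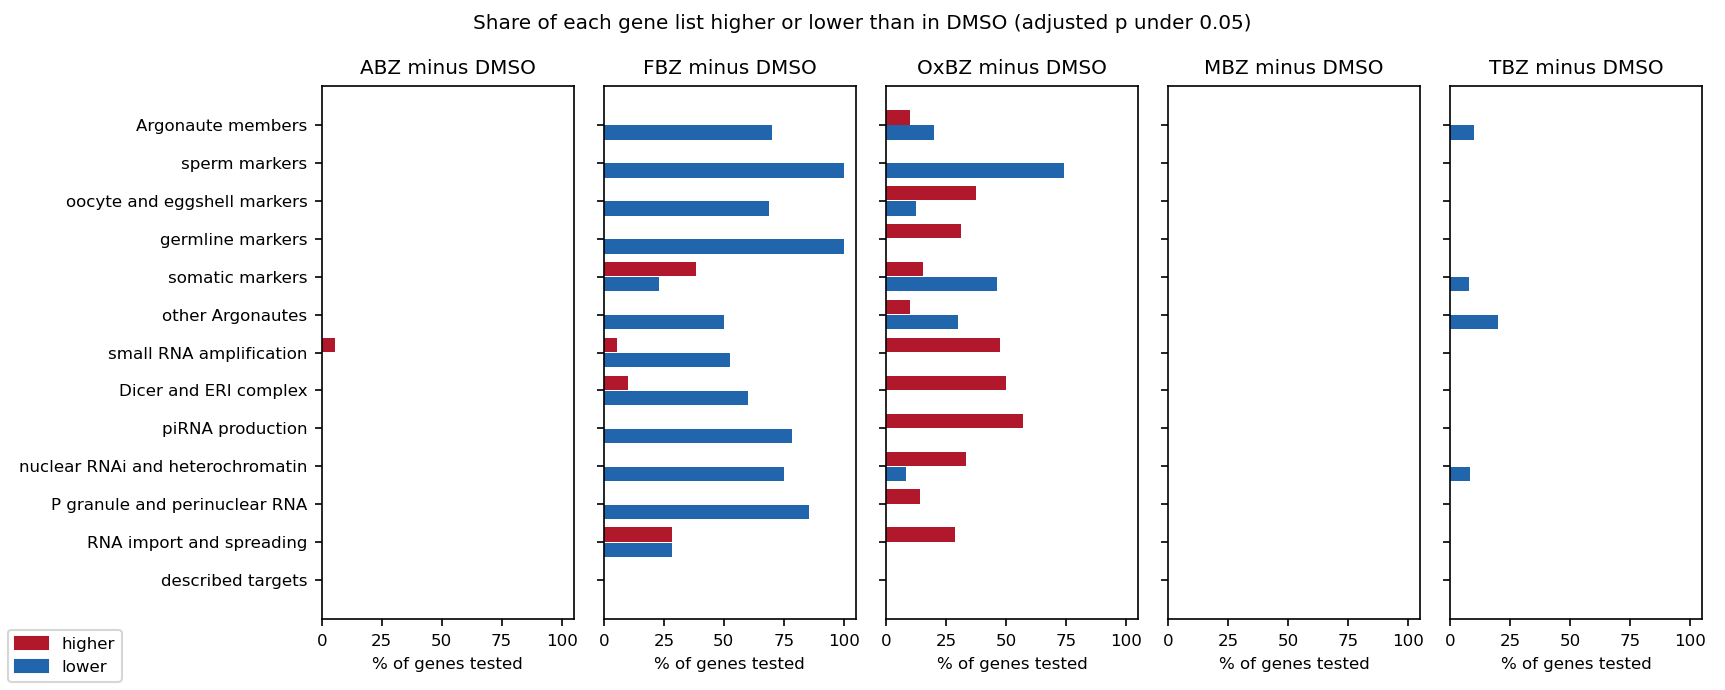
Percent of the tested genes of each list called higher (red) or lower (blue) than DMSO in each drug at an adjusted p of 0.05. FBZ shows blue bars in all lists but the described targets, OxBZ shows red bars in most small RNA lists and a blue bar for sperm markers, and ABZ, MBZ and TBZ show few bars.

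Many partners of the Argonautes were lower in FBZ and some were higher in OxBZ, where the OxBZ counts depended on single libraries. Their counts stand beside 27.4% lower and 24.3% higher among all genes in FBZ, and 21.5% lower and 21.2% higher in OxBZ. Of 19 tested genes that amplify small RNAs, 10 were lower and 1 higher in FBZ, and 9 were higher and none lower in OxBZ. In FBZ, rrf-3 and ego-1, RNA-dependent RNA polymerase genes, were lower at log2 fold changes of -0.50 and -0.48, and the higher one was rrf-2 at 0.90. In OxBZ, rde-12 and ekl-1 were higher at 0.37 and 0.30, and without DMSO 2 the ekl-1 call was lost, at 0.22 (edgeR, adjusted p = 0.13). Of 10 Dicer and ERI complex genes, 6 were lower and 1 higher in FBZ, and 5 were higher and none lower in OxBZ. Dicer itself, dcr-1, was at -0.49 in FBZ and its double-stranded RNA binding partner rde-4 at -0.42. The higher one in FBZ, the miRNA complex gene ain-1, was at 0.59, and its call was lost without DMSO 2, at 0.40 (edgeR, adjusted p = 0.125), and without any 1 of the FBZ libraries. In OxBZ the largest were eri-3 at 0.29, eri-1 at 0.27 and pir-1 at 0.26, and the calls of eri-1 and pir-1 were lost without DMSO 2 (edgeR, adjusted p = 0.0811 and 0.191).

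Of 14 tested genes for piRNA production, 11 were lower in FBZ and 8 were higher in OxBZ, none the other way. The largest in FBZ were pid-1 at -0.43, tofu-2 at -0.42 and tofu-4 at -0.41, and in OxBZ erh-2 at 0.49, tofu-7 at 0.45 and pid-3 at 0.45. Of 12 genes of nuclear RNA interference and heterochromatin, 9 were lower in FBZ, led by heri-1 at -0.37, set-32 at -0.37 and hrde-2 at -0.29. In OxBZ 4 of these were higher, among them the HP1 homolog hpl-2 at 0.37 and nrde-4 at 0.24, and 1 was lower, the histone methyltransferase gene set-25 at -0.65. In TBZ set-25 was the 1 gene of that list called, at -0.77, and this call was lost without DMSO 1, DMSO 3, TBZ 3 or TBZ 4. Of 14 P granule and perinuclear genes, 12 were lower in FBZ, led by the helicase gene glh-1 at -0.50, meg-3 at -0.49 and pgl-1 at -0.47. The glh-1 call was lost without DMSO 2, at -0.28 (edgeR, adjusted p = 0.197), and without any 1 of the FBZ libraries. In OxBZ 2 of the 14 were higher, a smaller share than among all genes, deps-1 at 0.22 and prmt-5 at 0.18, and both calls were lost without DMSO 2 (edgeR, adjusted p = 0.188 and 0.141).

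Without DMSO 2, the genes lower in FBZ numbered 11 for amplification, 6 for Dicer and ERI, 10 for piRNA production, 7 for nuclear RNA interference and 7 for P granules. Those higher in OxBZ then numbered 3, 1, 7, 3 and 1 in the same order of lists. Other libraries moved these counts as well. Without OxBZ 1 the numbers higher in OxBZ were 0, 0, 5, 2 and 0, and without DMSO 1 they were 1, 1, 5, 2 and 0. Without FBZ 3 the genes lower in FBZ numbered 7 for piRNA production and 7 for P granules.

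Genes for RNA import and spreading were called in both directions in FBZ. Of 7, 2 were higher and 2 lower, near the shares of all genes, 24.3% and 27.4%. The lower ones were the double-stranded RNA channel gene sid-1 at -0.49 and rsd-6 at -0.29, and their calls held without DMSO 2. The higher ones were sid-5 at 0.51 and rsd-3 at 0.25, and neither was called without DMSO 2 or without any 1 of the FBZ libraries. In OxBZ rsd-6 was higher at 0.26 and rsd-2 at 0.24, and without DMSO 2 the rsd-2 call was lost (edgeR, adjusted p = 0.103). Of 10 further Argonaute genes tested, 5 were lower in FBZ and 2 in TBZ, where 27.4% and 3.17% of all genes were lower. In OxBZ 1 was higher and 3 were lower, where 21.2% of all genes were higher and 21.5% lower. The higher one in OxBZ was alg-2, a miRNA Argonaute gene, at 0.46. Without DMSO 2 none was higher and 2 were lower in OxBZ, with alg-2 at 0.26 (edgeR, adjusted p = 0.2), and the counts in FBZ and TBZ were 5 and 2. Of the genes described as targets of ERGO-1 or of the piRNA pathway, E01G4.5, K02E2.6, bath-45 and xol-1 were measured and edgeR and DESeq2 called none in any drug, with 1 at an unadjusted p under 0.05, in OxBZ, and with list medians between -0.19 and 0.175. Median log2 fold changes of these companion lists in FBZ were -0.22 for amplification, -0.27 for Dicer and ERI, -0.28 for piRNA production, -0.26 for nuclear RNA interference and -0.43 for P granules, against -0.007 for all genes. Like the 16 germline markers, many of these genes are expressed mainly in the germline, and whether their levels moved apart from the amount of germline RNA was not tested.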

How the data were processed

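Read counts per gene were deposited by the authors for 18 RNA libraries of whole worms. Subread 1.4.6 and featureCounts are named per the submitters' processing notes. Genome build, annotation and strand setting: not given in the sources used here. No coordinates are therefore printed, and antisense or overlapping reads cannot be told apart. Symbols were matched by gene ID to a reference table of gene names (19628 IDs matched, 767 not), and exon lengths came from Ensembl release 115.

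Genes were kept by filterByExpr (minimum count 10; 17484 kept, 2911 removed). In R 4.3.3, edgeR 4.0.16 fitted a robust quasi-likelihood model to all libraries with TMM factors and 1 coefficient for each group (12 residual degrees of freedom). Within a comparison, Benjamini-Hochberg adjustment ran over every gene tested, at a threshold of 0.05. The SE was approximated as |log2 fold change| divided by the root of the F statistic, and 95% intervals rest on it. The procedure was tested on simulated data.

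The members and the gene lists were chosen with earlier results of these data known. Text names all 10 Argonaute genes, up to 3 called genes of the largest change per list and drug, and the 3 genes most correlated with each Argonaute gene. 1 gene that this rule names is not reported here. Genes outside this rule, such as cpb-1, fog-1, spe-44, spe-27, elt-2 and rsd-3, were chosen after their values were seen. Replicate numbers pair ABZ with DMSO, whose deviations from the group means correlated at 0.727, 0.837 and 0.57 for numbers 1, 2 and 3. Other drugs did not reach 0.1 in every pair. DESeq2 1.42.0, other scalings, filters, blocks, a sperm covariate and leaving out libraries were alternatives. No sequences were used here.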

Additional observations from a re-analysis of the deposited data

How the results depend on the processing

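Argonaute calls in FBZ (7) stayed between 5 and 7 in 29 settings, though not always of the same genes. With the sperm covariate the 5 were csr-1, hrde-1, alg-3, alg-4 and nrde-3, the last not called in the reported fit. ABZ had 0 calls in all 30 settings run, the fits with the replicate block included. In OxBZ (3) the count was 1 in the fit of the 2 groups alone and 1 with the replicate block on drug and DMSO libraries, and 1 to 4 when a library was left out. In MBZ (0) it was 1 with DESeq2 and 0 to 4 when a library was left out. In TBZ (1) it was 2 with upper-quartile factors, with DESeq2 and with a minimum count of 50. It was 0 in the fit of the 2 groups, with either replicate block (all 18 libraries, or drug and DMSO only), without both number 2 libraries of ABZ and DMSO, and without the FBZ libraries, these last 2 settings chosen after seeing the data. When a library was left out it was 0 to 3. Over the 10 drug pairs 39 calls were made, and 25 to 39 when a library was left out, the lowest without OxBZ 1. The level of alg-3 and alg-4 relative to the other 8 in FBZ (-6.90) was -7.29 with a pseudocount of 0.1 CPM and -6.52 with 1 CPM. With the sperm covariate, nrde-3 reversed to -0.51 in FBZ minus DMSO and to 0.425 in ABZ minus FBZ. The cause was not tested. Without scaling factors the median of all genes was 0.168 in FBZ, 0.112 in MBZ and 0.184 in TBZ. The split of higher and lower calls over all genes was then 5339 and 2761 in FBZ (4250 and 4799 with TMM) and 1647 and 355 in TBZ (535 and 554), and the Argonaute genes in FBZ were 1 higher and 5 lower. With upper-quartile factors the OxBZ median was -0.119 and the split 2384 and 4287 (3715 and 3751 with TMM). For MBZ the split was 213 and 109 with upper-quartile factors and 465 and 407 with DESeq2 (218 and 41 in the reported fit). Over all genes the fit of 2 groups called 0.162% in ABZ, 0.246% in MBZ, 0.0715% in TBZ and 27.3% in OxBZ, DESeq2 called 4.19% in ABZ, 4.99% in MBZ and 11.8% in TBZ, and the replicate block called 2.79% (all libraries) or 0% (drug and DMSO only) in TBZ and, with drug and DMSO only, 32.7% in FBZ, 12.4% in OxBZ and 0.0959% in MBZ. Outside ABZ, deviations of same-numbered drug and DMSO libraries correlated at -0.502 to 0.487, so no pairing by number was evident there. With 3 libraries per group these correlations cannot exclude it. Depth limits alg-3 and alg-4 in FBZ alone, at 56 to 104 reads.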

Other observations

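Argonaute genes outside the 10 also varied between drugs. The wago-10 transcript was at 0.346, 0.334 and 0.752 CPM in FBZ and at 0.683, 1.13 and 0.747 CPM in OxBZ, against 1.99, 15.6 and 3.41 CPM in DMSO. Its libraries followed alg-3, with DMSO 2 and ABZ 2 highest at 15.6 and 16.4 CPM, and a Pearson r with alg-3 of 0.95 over 18 libraries and 0.932 over 16. The log2 fold change was -3.88 in FBZ and -3.04 in OxBZ (edgeR, adjusted p = 0.00289 and 0.0126). Without DMSO 2 the FBZ value was -2.49 (edgeR, adjusted p = 0.0201). The OxBZ call was lost without DMSO 2, at -1.73, and without OxBZ 1, at -2.99 (edgeR, adjusted p = 0.106 and 0.0539). SAGO-2 and PPW-1 bind secondary small RNAs. The sago-2 transcript was at 131.0, 133.0 and 138.0 CPM in FBZ and 187.0, 184.0 and 163.0 CPM in OxBZ, against 249.0, 267.0 and 295.0 CPM in DMSO. In TBZ it was at 207.0, 189.0 and 178.0 CPM. All these libraries lay below DMSO, with log2 fold changes of -1.01 in FBZ, -0.60 in OxBZ and -0.50 in TBZ (edgeR, adjusted p = 1.61e-06, 6.64e-05 and 0.00216). The ppw-1 transcript was at 135.0, 133.0 and 133.0 CPM in FBZ, against 218.0, 238.0 and 285.0 CPM in DMSO, with a log2 fold change of -0.89 (edgeR, adjusted p = 1.77e-05). In TBZ ppw-1 was at 185.0, 180.0 and 173.0 CPM, with a log2 fold change of -0.47 (edgeR, adjusted p = 0.00954). In OxBZ it was at 196.0, 189.0 and 172.0 CPM, so the libraries of these drugs also lay below DMSO.

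The RNA-dependent RNA polymerase gene rrf-2 was the 1 gene of all companion lists called in ABZ, where 2.2% of all genes tested were called. It was at 13.2, 25.9 and 17 CPM in ABZ, 16.2, 20.0 and 14.6 CPM in FBZ and 17.1, 17.2 and 13.6 CPM in OxBZ, against 7.87, 10.2 and 9.14 CPM in DMSO. Every library of these drugs was above every DMSO library. The same held in MBZ, at 14.3, 15.2 and 14.4 CPM, while TBZ was at 10.1, 14.1 and 16.8 CPM. The gene rrf-2 was called in neither MBZ nor TBZ. The log2 fold change was 1.04 in ABZ, 0.90 in FBZ and 0.81 in OxBZ (edgeR, adjusted p = 0.0297, 0.00508 and 0.0125). The ABZ call was lost without ABZ 2, at 0.735, and without DMSO 1, DMSO 2 or DMSO 3, at 0.916, 1.14 and 1.05 (edgeR, adjusted p = 0.134, 0.127, 0.0557 and 0.0988). It was lost without MBZ 1 and without OxBZ 1 too (edgeR, adjusted p = 0.0638 and 0.0653). The OxBZ call was lost without DMSO 1 and without OxBZ 1, at 0.611 and 0.689 (edgeR, adjusted p = 0.0996 and 0.0799).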
